A study of Mus musculus with 9 samples.

Results

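Both saturated fatty acids of the study were pooled here, as 6 acid-treated libraries against 3 control libraries of β-TC6 cells, and these groups hold all 9 libraries of the series. β-TC6 is an insulin-secreting line that was grown from an insulinoma, a β-cell tumour, of transgenic mice. Of the acid libraries, 3 came from cells given palmitic acid and 3 from cells given stearic acid, each at 400 µmol/L for 24 h together with 1.3% bovine serum albumin (BSA). The 3 control libraries are labelled untreated, and the labels do not say if BSA was given to them, so the acid and its carrier cannot be told apart. The labels do not say that replicates came from separate cultures, so p-values measure the spread between these libraries, which may be technical.

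Long non-coding RNAs (lncRNAs) are transcripts that are not translated into protein. Many lie opposite or next to coding genes, and some act on the transcription or chromatin of their neighbours while others pair with microRNAs or bind proteins. Palmitic and stearic acid are the common saturated fatty acids of fat and blood plasma, and long exposure of β cells to them is known to reduce insulin production and to set off endoplasmic reticulum stress and inflammatory signalling. A comparison of both acids together with control asks which lncRNAs respond to saturated acids in general.

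Total RNA depleted of ribosomal RNA was sequenced, and the deposited table holds lncRNA transcripts alone. Their counts were summed over the transcripts of a locus, which left 3039 of 9635 loci with enough counts for a test. Levels are given as CPM, lncRNA counts scaled to a common library size. lncRNA counts per library summed to 2271060 ± 535543 in controls and to 2313690 ± 479699 with acid (SD, n = 3 and 6), with a two-sided exact permutation p of 0.952, where 0.0119 is the smallest the design allows. A floor of 3 counts equals 1.10 to 2.01 CPM in a single library, and covers counting error only. Coding markers of β cells are not in the table, so the label can be checked only through lncRNA loci at such genes, 27 of which were tested: their means in controls ran from 7.37 CPM near the granin gene Chgb over 14.2 CPM at the insulin gene Ins2 to 4101 CPM for Igf2os. The locus at Ins2 overlaps that gene on the same strand, so its reads may be of Ins2. Loci near genes of acinar cells (1 tested), macrophages (2 tested) and δ cells (1 tested) had means of at most 232 CPM in controls. None of them passed the test between acid and control. Of 2 tested loci near α-cell genes, with 64.1 and 4.95 CPM in controls, Gm20554 near Irx2 passed. No locus near genes of PP, duct, endothelial or fibroblast cells had enough counts for a test. Levels at β-cell genes and at genes of other cells overlapped, so they do not settle the label.

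**Figure D1:**
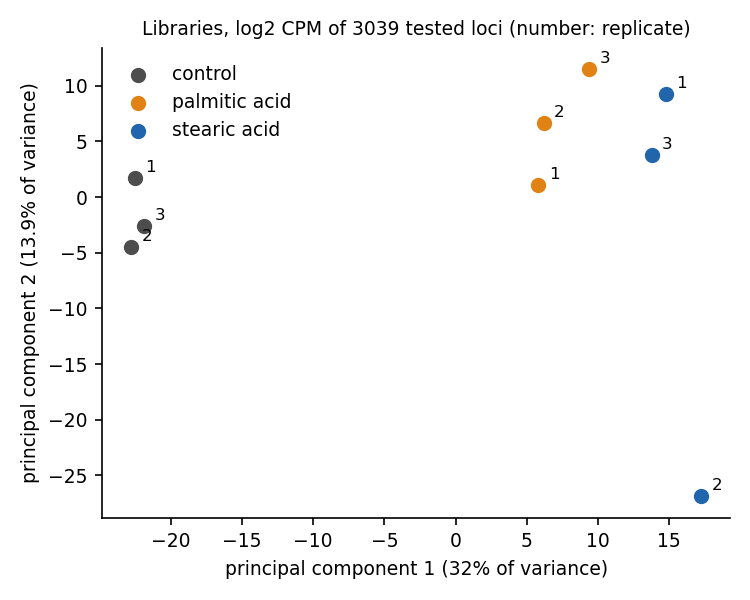
The first and second principal components of log2 CPM over the tested loci are plotted for each library, with the share of variance on each axis and the replicate number beside each point. The control libraries lie between −22.8 and −21.9 on the first component and the acid libraries between 5.81 and 17.3, while stearic acid replicate 2 lies at −26.9 on the second.

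The libraries separated by treatment before any locus was tested. On the first principal component, which held 32% of the variance, the 3 controls lay between −22.8 and −21.9, palmitic acid between 5.81 and 9.39 and stearic acid between 13.8 and 17.3. Stearic acid replicate 2 stood apart on the second component at −26.9, where the others lay between −4.47 and 11.5. It also had the fewest lncRNA counts, 1537431, and the largest share of counts in the most abundant locus, 30.1% against 17% to 25.9% in the other libraries.

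A choice of 6 annotated lncRNAs, 3 that fell and 3 that rose, is shown by the join between the first and second exon. For each, the transcript with most counts among those that match a GENCODE transcript at both ends was taken, so that the molecule can be identified. It had to hold at least 33% of the locus's counts and need not be the most abundant transcript of the locus. The 6 were picked to show both directions, after their values were seen. Each sequence is written 5′ to 3′ along the transcript, with up to 40 bases of exon 1 in lower case and 40 bases of exon 2 in capitals, from GENCODE mouse release M21 (GRCm38, the build mm10). Igf2os, Dtnbos and Zfp335os fell with acid, while Gm5860, Kank4os and Gm16685 rose.
Igf2os, plus strand, chr7:142659693-142670356: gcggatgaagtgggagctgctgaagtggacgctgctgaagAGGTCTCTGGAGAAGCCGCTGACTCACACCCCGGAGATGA
Dtnbos, minus strand, chr12:3752543-3762146: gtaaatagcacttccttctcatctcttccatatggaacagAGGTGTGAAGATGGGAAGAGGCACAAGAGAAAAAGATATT
Zfp335os, plus strand, chr2:164911354-164919953: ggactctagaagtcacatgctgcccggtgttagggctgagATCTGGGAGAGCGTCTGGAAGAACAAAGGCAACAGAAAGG
Gm5860, plus strand, chr4:82065873-82067775: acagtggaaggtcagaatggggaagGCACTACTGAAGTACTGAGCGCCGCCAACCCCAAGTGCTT
Kank4os, plus strand, chr4:98793768-98798900: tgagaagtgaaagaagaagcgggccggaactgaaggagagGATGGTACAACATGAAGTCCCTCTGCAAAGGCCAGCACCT
Gm16685, plus strand, chr3:7612705-7690001: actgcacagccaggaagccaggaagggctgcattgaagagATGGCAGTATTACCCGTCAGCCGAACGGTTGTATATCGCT
These transcripts held between 38.7% (Dtnbos) and 100% (Gm16685) of their locus's counts.

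With both acids together, 353 of 3039 lncRNA loci (11.6%) passed edgeR's quasi-likelihood test at a Benjamini-Hochberg adjusted p under 0.05, of which 196 rose (6.45%) and 157 fell (5.17%). Among these calls, increases were larger than decreases. The median size of change on the log2 scale was 1.21 among loci that rose and 0.83 among those that fell. A size of at least 2 was reached by 47 loci that rose and 10 that fell. Loci that rose had lower levels (median 24.4 against 34.7 CPM). The filter asks for enough counts in any 3 libraries, which a locus silent in controls meets more easily than one silent with acid. With a mean of at least 50 counts, 104 loci rose and 112 fell. Whether the filter shaped the sizes was not tested. In 501 loci (16.5%) all 6 acid libraries lay beyond all 3 controls, 258 above (8.49%) and 243 below (8.0%). Both criteria were met by 304 loci (10%), 165 that rose (5.43%) and 139 that fell (4.57%). At an unadjusted p under 0.05, 775 loci differed.

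The number of calls rested on the 3 controls. Without control replicate 1, 2 or 3, 218, 172 and 190 loci passed in place of 353, while without a single acid library between 282 and 379 passed. Of the 353 loci, 121 passed in every one of the 9 fits that left out a library, and 1 passed in none of them. Counts are of RNA from whole cultures, so fewer cells that make a lncRNA and less of it per cell cannot be told apart. The library kit keeps strand, but the strand setting used in counting was not found in the labels or the file, so reads of an antisense lncRNA and of the coding gene opposite it cannot be told apart.

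**Figure D2:**
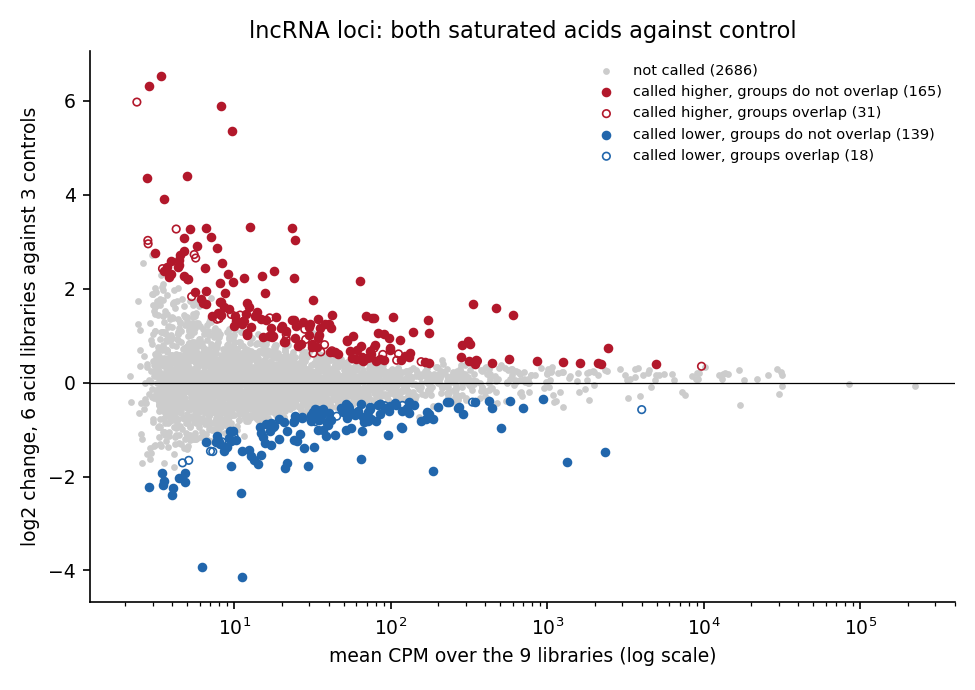
Each point is 1 of 3039 tested lncRNA loci, by its mean CPM over the 9 libraries (log scale) and its log2 change in the 6 acid libraries against the 3 controls. Red points rose and blue points fell at an adjusted p under 0.05. Filled points are the 165 and 139 loci whose groups do not overlap, open points the 31 and 18 whose groups do.

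A pair of lncRNAs at genes of β-cell growth and identity were among the most abundant that fell. Igf2os lies opposite Igf2, the imprinted growth factor gene next to the insulin gene Ins2 (chr7:142658897-142670356). It had 3810, 4548 and 3944 CPM in the controls and a lowest, median and highest level of 1104, 1516 and 1846 CPM with acid. Every acid library was under every control. Igf2os fell by 1.48 on the log2 scale (SE 0.14, edgeR quasi-likelihood adjusted p = 8.52e-08), 2.79-fold lower.

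The lncRNA locus XLOC_053651, a 2-exon transcript opposite Mafa, which encodes an activator of insulin transcription (chr15:75745489-75746963), fell further. Its controls had 2448, 2599 and 2358 CPM and its acid libraries ranged from 492 over a median of 781 to 988 CPM. The groups did not overlap. The Mafa antisense locus fell by 1.69 on the log2 scale (SE 0.16, edgeR adjusted p = 1.19e-07), and passed in all 9 fits that left out a library, as Igf2os did.

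Of 27 tested loci that overlap or lie within 10 kb of a list of β-cell genes, 6 fell, 1 rose and 20 did not pass, where 5.17% of all tested loci fell and 6.45% rose, with a median log2 change of −0.17 where the median over all tested loci was 0.00 to 2 decimals (-0.000152). This list, like those below, was drawn up with earlier results of these data known, so its counts describe and support nothing. Besides Igf2os and the Mafa antisense locus, the 4 others that fell were at lower levels. The locus XLOC_002730 lies next to Scg2, the gene of a granin of secretory granules, on the same strand. Whether its reads belong to transcripts of Scg2 was not tested. XLOC_002730 had 47.9, 28.8 and 46.1 CPM in controls and 8.50 to 24.6 CPM with acid (log2 change −1.25 ± 0.25, SE, edgeR adjusted p = 0.00136). The locus opposite Chga, a granin gene as well, had 313, 346 and 369 CPM in controls and 214 to 275 CPM with acid (−0.52 ± 0.12, edgeR adjusted p = 0.00632). Neither pair of groups overlapped, though the Chga locus did not pass without control replicate 3 (edgeR adjusted p = 0.0612).

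The lncRNA XLOC_136495 overlaps Ins2 itself on the same strand, so reads of the lncRNA and of the gene cannot be told apart there. This locus was scarce, with 12.6, 13.2 and 16.7 CPM in controls and 5.10 to 10.7 CPM with acid. It fell by 1.03 (SE 0.33, edgeR adjusted p = 0.0431) and passed in 2 of the 9 fits that left out a library, those without stearic acid replicate 2 or 3, with edgeR adjusted p of 0.0622 to 0.207 in the others. Of the 4 loci opposite Pcsk2, the gene of an insulin-processing protease, XLOC_086085 fell (−0.48 ± 0.15, edgeR adjusted p = 0.0386), though its groups overlapped at 119 to 171 and 73.2 to 126 CPM. The most abundant of the 4, XLOC_086087, had a mean of 3159 ± 28.1 CPM in controls and 3266 ± 279 CPM with acid (SD, n = 3 and 6, edgeR adjusted p = 0.839). XLOC_086085 did not pass without control replicate 1 or 3, palmitic acid replicate 3 or stearic acid replicate 1 or 3 (edgeR adjusted p = 0.0553 to 0.259).

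Several loci at other genes of the β-cell programme did not pass. Plut, opposite Pdx1, had a mean of 356 ± 28.4 CPM in controls and 317 ± 36.7 CPM with acid (edgeR adjusted p = 0.445). The locus opposite the zinc transporter gene Slc30a8 had 3778 ± 521 and 3032 ± 286 CPM (log2 change −0.32, edgeR adjusted p = 0.0770), and Pax6os1 339 ± 24.2 and 320.0 ± 22.8 CPM (edgeR adjusted p = 0.731). For Pcsk2os1 and the Nkx2-2 antisense lncRNA 6430503K07Rik, all 6 acid libraries lay below all 3 controls without a call, at −0.20 and −0.14 on the log2 scale. Pcsk2os2 had 740.4 ± 72.4 and 632 ± 42.6 CPM (edgeR adjusted p = 0.208).

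**Figure D3:**
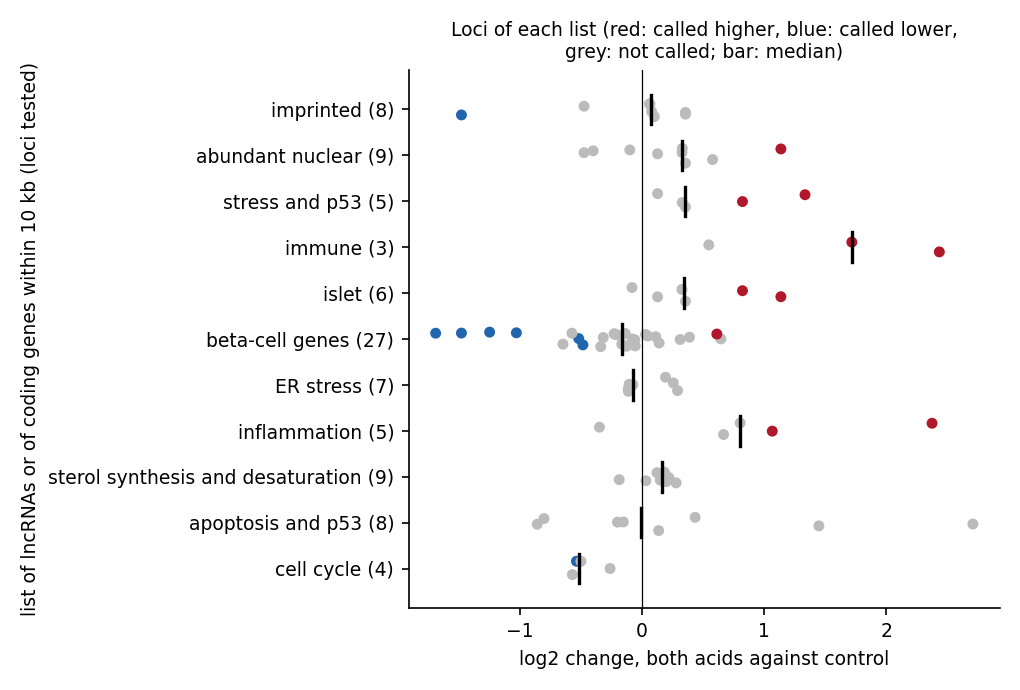
Each point is a tested lncRNA locus of a list, placed by its log2 change with both acids against control; lists with at least 3 tested loci are shown, with the number tested. Of 27 loci at β-cell genes, 6 fell and 1 rose. None of 7 at endoplasmic reticulum stress genes, 9 at sterol and desaturase genes or 8 at apoptosis and p53 genes passed. Over all tested loci, 11.6% passed.

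Other decreases were of lncRNAs with no coding gene within 10 kb. Gm12962 (chr4:131533007-131677845) had 399, 384 and 309 CPM in controls and a lowest, median and highest level of 72.4, 86.5 and 141 CPM with acid. Its groups did not overlap, and its change of −1.88 ± 0.17 (SE, edgeR adjusted p = 3.99e-08) shared the smallest adjusted p of the comparison. The locus XLOC_106336, 47180 bases from it on the same strand and chosen after its values were seen, fell by 1.72 (SE 0.22, edgeR adjusted p = 5.42e-06). Gm27168 and XLOC_143609, overlapping loci on opposite strands of chromosome 8, fell by 1.62 and 1.04 (edgeR adjusted p = 1.16e-05 and 0.000141). Opposite coding genes, lncRNAs at Dock1, a cell migration gene (−1.14), and Abcc6, a transporter gene (−1.11), fell, with edgeR adjusted p of 5.41e-05 and 5.89e-05. XLOC_152926 near Gclc, a gene of glutathione synthesis (−1.38), XLOC_003521 (−1.12) and 2410080I02Rik near the transcription factor gene Klf9 (−1.02) fell too, with edgeR adjusted p of 9.45e-05 to 0.00189. XLOC_104670, inside the span of Gm12962 on the other strand, fell by 2.23 (SE 0.60, edgeR adjusted p = 0.0156) but did not pass without control replicate 2 or 3 (0.0601 and 0.121).

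Dtnbos, antisense to the dystrobrevin gene Dtnb, had 186, 167 and 163 CPM in controls and 76.4 to 110 CPM with acid. It fell by 0.95 (SE 0.13, edgeR adjusted p = 1.92e-05), with no overlap between groups. The named antisense lncRNAs Zfp335os (−0.66), Ube4bos1 (−0.45) and Rptoros (−1.23), and Eldr (−0.48), also fell, with edgeR adjusted p of 0.0224 to 0.0478. Rptoros, opposite the gene of an mTOR complex subunit, passed in 3 and Ube4bos1 in 1 of the 9 fits that left out a library, in none of those without a control. Zfp335os did not pass without control replicate 1 or 3 or stearic acid replicate 1 or 3, nor Eldr without control replicate 1 or 3 (edgeR adjusted p = 0.0510 to 0.163).

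Lockd, the lncRNA just downstream of the cell cycle inhibitor gene Cdkn1b, passed. It was the 1 call of 4 tested loci on the cell cycle list, where 11.6% of all tested loci passed. Its controls had 572, 566 and 542 CPM and its acid libraries a lowest, median and highest level of 345, 372 and 458 CPM. The groups did not overlap, and Lockd fell by 0.54 (SE 0.12, edgeR adjusted p = 0.00362). A further list of 79 genes of mitosis was drawn up after decreases there had been seen, so its counts describe and support nothing. Of 15 tested loci at 14 of these genes, 7 fell, 0 rose and 8 did not pass, with a median log2 change of −0.55. Over all tested loci, 5.17% fell and 6.45% rose. The loci opposite Prc1 (−0.96) and Tacc3 (−0.77), genes of the mitotic spindle, had edgeR adjusted p of 0.000243 and 0.000164. The Prc1 locus also overlaps the coding gene Rccd1 on the same strand, so reads of the lncRNA and of Rccd1 cannot be told apart there. The loci opposite Kif18b (−0.73), Knstrn (−0.68), Ccnf (−1.03), Dlgap5 (−0.55) and Arhgap19 (−0.76) had edgeR adjusted p of 0.00226 to 0.0302, while a locus at Plk1 stood at −0.15 (edgeR adjusted p = 0.675). With palmitic acid alone against control, the Knstrn, Ccnf, Dlgap5 and Arhgap19 loci did not pass (edgeR adjusted p = 0.0713 to 0.288). All of them passed with stearic acid alone, and the groups of the Arhgap19 locus overlapped. Without 1 control the Ccnf (control replicate 3), Dlgap5 (2 or 3) and Arhgap19 (1 or 2) loci did not pass, nor did the Arhgap19 locus without stearic acid replicate 1 or 3 (edgeR adjusted p = 0.0609 to 0.221).

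**Figure D4:**
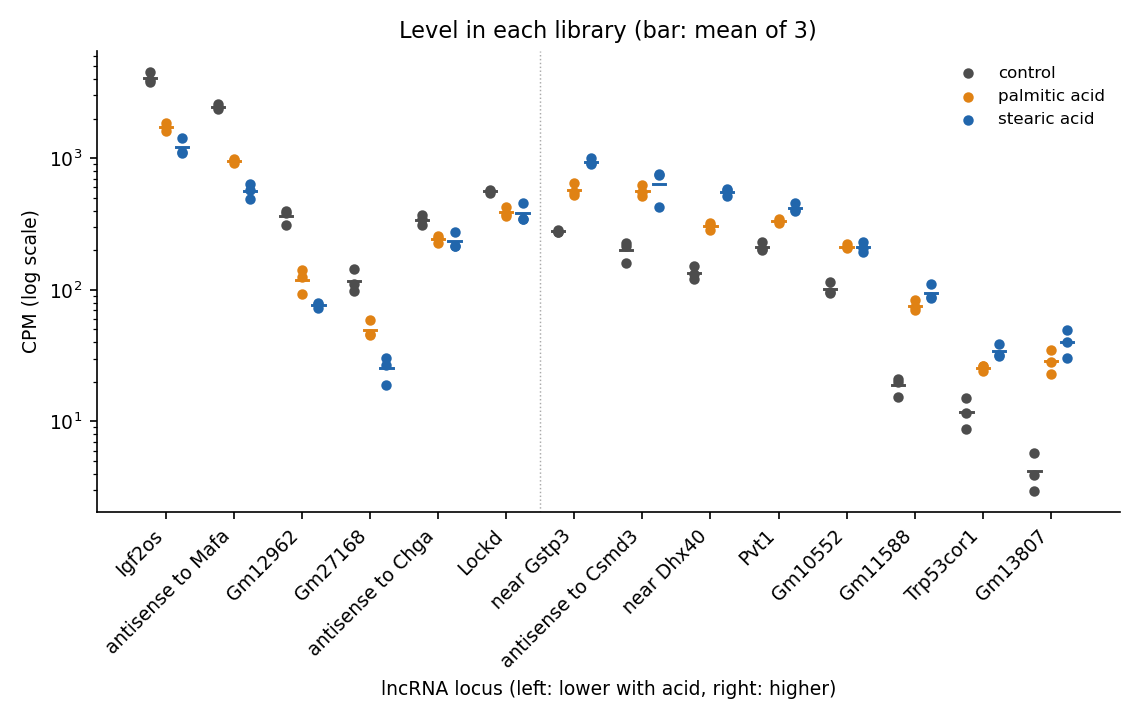
CPM in each library (log scale) of 6 lncRNA loci that fell and 8 that rose with acid; each point is a library and each bar the mean of 3. For every locus shown, all 6 acid libraries lie beyond all 3 controls.

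Among increases, Gm11588, a lncRNA of chromosome 1 with no coding gene within 10 kb (chr1:61440101-61477251), shared the smallest adjusted p. It had 15.5, 20 and 21.2 CPM in controls and a lowest, median and highest level of 70.2, 84.8 and 111 CPM with acid. The groups were far apart, at a log2 change of 2.17 ± 0.19 (SE, edgeR adjusted p = 3.99e-08), 4.50-fold. Gm5860, likewise without a near coding gene, rose from 19.3, 17.1 and 21.5 CPM to between 48.5 and 59.5 CPM (1.45 ± 0.18, edgeR adjusted p = 4.32e-06).

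Further loci rose, among them some with no coding gene nearby. XLOC_061288 rose from 1.93, 4.39 and 3.72 CPM to between 23.7 and 45.6 CPM (log2 change 3.29 ± 0.32, edgeR adjusted p = 1.29e-07) and XLOC_038850 from 50.8, 52.6 and 44.2 CPM to between 113 and 147 CPM (edgeR adjusted p = 4.34e-07). Every acid library lay above every control at both loci. XLOC_134192 near Tex36 (1.42), Gm14264 (1.38) and A930001C03Rik, opposite Rhod and Syt12 (1.77), rose with edgeR adjusted p of 1.38e-06 to 8.74e-05. XLOC_095270 (1.90), and Gm11716 opposite Pitpnc1 (2.55), rose with edgeR adjusted p of 0.0176 and 0.00326, and XLOC_095270 did not pass without any 1 of the 3 controls or stearic acid replicate 3 (0.0566 to 0.0721). XLOC_095270 overlaps Gm11549, annotated as a coding gene, on the same strand, so reads of the lncRNA and of that gene cannot be told apart there.

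At higher levels, the locus XLOC_053499 opposite Csmd3, a large membrane protein gene of the nervous system, had 215, 160.4 and 226 CPM in controls and a lowest, median and highest level of 424, 587 and 758 CPM with acid. It rose by 1.59 (SE 0.17, edgeR adjusted p = 4.97e-07), and its groups did not overlap. XLOC_078327 near the glutathione transferase gene Gstp3 rose from 284, 277 and 277 CPM to between 524 and 1008 CPM (1.44 ± 0.18, edgeR adjusted p = 4.32e-06). XLOC_021670 near the RNA helicase gene Dhx40 rose from 119.9, 153 and 132 CPM to between 283 and 584 CPM (1.67 ± 0.21, edgeR adjusted p = 4.32e-06). Of the 6 most abundant loci with a call and no overlap, Igf2os fell and the other 5 rose, by 0.39 to 0.74 on the log2 scale. Among these, the Rad51b antisense locus XLOC_030548 went from 1715 ± 101 to 2306 ± 58.2 CPM (SD, n = 3 and 6, log2 change 0.43, edgeR adjusted p = 0.00891, or 0.0814 without control replicate 3), and the March4 antisense locus XLOC_000630 from 1679 ± 218 to 2800 ± 569 CPM (0.74, edgeR adjusted p = 0.00146). The intergenic loci XLOC_054418 (0.39), XLOC_037756 (0.39) and XLOC_104517 (0.41), at 1330 to 4085 CPM in controls, had edgeR adjusted p of 0.0219 to 0.0250 and did not pass without any 1 of the 3 controls (0.0657 to 0.116) or with library size alone (0.0501 to 0.0657).

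Stress lncRNAs were among the increases. Trp53cor1, also called lincRNA-p21, is a target of p53 next to the gene Cdkn1a, and had 8.70, 15.1 and 11.5 CPM in controls and a lowest, median and highest level of 24.2, 29.0 and 38.5 CPM with acid. Pvt1, the lncRNA next to Myc, had 230.2, 202 and 204 CPM in controls and 321, 371 and 454 CPM with acid on the same measure. Neither lncRNA's groups overlapped, and they rose by 1.34 ± 0.25 and 0.82 ± 0.13 (SE, edgeR adjusted p = 0.000669 and 0.000141). They were the 2 increases of 5 tested loci on the list of stress and p53 lncRNAs (median log2 change 0.36, 0 lower), where 6.45% of all tested loci rose, and the list also holds Neat1, at 0.33 (edgeR adjusted p = 0.131). Pvt1 is on the islet list as well, with Miat, which rose by 1.14 (SE 0.32, edgeR adjusted p = 0.0203) although its groups overlapped, at 10.7 to 22.2 and 19.1 to 53.6 CPM. Miat had 21.6 ± 2.35 CPM with palmitic acid and 47.4 ± 7.48 CPM with stearic acid (SD, n = 3), and against control only the stearic acid change passed (log2 change 0.49, edgeR adjusted p = 0.336, and 1.61, edgeR adjusted p = 0.000199). The pooled call was lost without control replicate 2 or 3 (edgeR adjusted p = 0.127 and 0.104). The most abundant of the islet lncRNAs, Malat1, had a mean of 8650 ± 922 CPM in controls and 10851 ± 1217 CPM with acid and did not pass (0.33, edgeR adjusted p = 0.0702).

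Some loci at inflammatory and immune genes rose, in part at low levels. Gm10552, antisense to the immune chromatin reader gene Sp140, had 94.3, 114 and 96.2 CPM in controls and a lowest, median and highest level of 194, 209 and 233 CPM with acid. It rose by 1.07 (SE 0.13, edgeR adjusted p = 4.07e-06) with no overlap. The locus opposite Map3k8, a kinase gene of inflammatory signalling on chromosome 18, rose from 7.74, 4.39 and 2.23 CPM to between 18 and 31.7 CPM (2.38 ± 0.35, edgeR adjusted p = 3.71e-05). These were the 2 increases of 5 tested loci at inflammatory genes, with 0 decreases and a median log2 change of 0.80, where 6.45% of all tested loci rose. Of the 5 loci 3 lie at Sp140, and the locus opposite the interleukin gene Il1a stood at −0.35 without a call. The list holds Sp140 and Map3k8 and was drawn up with earlier results known, so its count describes and supports nothing.

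On the immune lncRNA list, 2 of 3 tested loci rose, where 6.45% of all tested loci did. That list too was drawn up with earlier results known, and its count supports nothing. Gm16685, antisense to the lymphocyte growth factor gene Il7, had 1.93, 2.92 and 4.46 CPM in controls and 5.95 to 17.4 CPM with acid (1.72 ± 0.47, edgeR adjusted p = 0.0188). Lncenc1, best known from embryonic stem cells of the mouse, had 0, 2.44 and 2.23 CPM in controls and 5.5 to 12.7 CPM with acid (2.44 ± 0.58, edgeR adjusted p = 0.00714). Both sets of groups were apart, though Gm16685 did not pass without control replicate 1 or 2 (edgeR adjusted p = 0.0843 and 0.0737). Further loci opposite immune genes, chosen after their values were seen, were at H2-D1, an antigen presentation gene (0.81, edgeR adjusted p = 0.00529), at Bcl3, a partner of NF-κB (0.81, edgeR adjusted p = 0.0256), and at the interferon-induced gene Usp18 (0.63, edgeR adjusted p = 0.0495). The groups of the Bcl3 and Usp18 loci overlapped. The Usp18 locus XLOC_126352 passed in 1 of the 9 fits that left out a library, the one without palmitic acid replicate 2, and not with a replicate block, library size alone or no filter on low counts (edgeR adjusted p = 0.0545, 0.102 and 0.0792). The Bcl3 locus Gm16174 did not pass without control replicate 1 or 2 (edgeR adjusted p = 0.161 and 0.110), nor the H2-D1 locus XLOC_067143 without control replicate 1 (0.0608).

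Among other antisense and named lncRNAs, Pard3bos1, opposite the cell polarity gene Pard3b, rose from 14.0, 9.26 and 11.5 CPM to between 25.5 and 36.1 CPM (1.34 ± 0.24, edgeR adjusted p = 0.000414), with no overlap. Kank4os, opposite the cytoskeletal gene Kank4, rose from 100.1, 113 and 90.3 CPM to between 117 and 163 CPM (0.54 ± 0.14, edgeR adjusted p = 0.0146), but did not pass without control replicate 1 or 3 (edgeR adjusted p = 0.0608 and 0.114). Gm20554, next to the α-cell transcription factor gene Irx2, had 63.8, 64.8 and 63.5 CPM in controls and 79.1 to 96.0 CPM with acid (0.46 ± 0.14, edgeR adjusted p = 0.0286). It was the 1 increase of 2 tested loci at α-cell genes, where 6.45% of all tested loci rose. It did not pass without any 1 of the 3 controls (edgeR adjusted p = 0.0932 to 0.115). Panct2, known from mouse embryonic stem cells (1.15), and Bvht, known from heart development in the mouse (2.46), rose with edgeR adjusted p of 0.0122 and 0.0252. Panct2 did not pass without control replicate 2 or 3, nor Bvht without control replicate 1 or 3 or stearic acid replicate 3 (edgeR adjusted p = 0.0528 to 0.140).

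The transcript named in the series title, TCONS_00077866, belongs to the intergenic locus XLOC_045889 (chr14:72981787-73001540), which holds 7 transcripts. The locus had 33.8, 29.2 and 35.7 CPM in controls and a lowest, median and highest level of 50.0, 60.5 and 77.0 CPM with acid. The groups did not overlap, and the locus rose by 0.90 (SE 0.17, edgeR adjusted p = 0.000915), in all 9 fits that left out a library.

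On other lists no locus passed, where 11.6% of all tested loci did. None passed of 7 loci at endoplasmic reticulum stress genes (median log2 change −0.07), 9 at sterol synthesis and desaturation genes (0.17), 8 at apoptosis and p53 genes (−0.01), 1 at fatty acid oxidation and PPAR genes (0.45) and 1 snoRNA host (1.46), and at an unadjusted p under 0.05, 1, 0, 4, 1 and 0 of them differed, in that order. Among these loci were those at or near Scd2 (XLOC_079461, 224 ± 3.88 and 261 ± 17.5 CPM in controls and with acid, and XLOC_079460, 212 ± 17.3 and 235 ± 22.9 CPM), Atf4 (XLOC_054582, 144 ± 9.96 and 165 ± 25.8 CPM), Ern1 (XLOC_022034, 95.9 ± 13.2 and 117 ± 11.7 CPM) and Ehhadh (1300002E11Rik, 57.7 ± 7.18 and 78.6 ± 14.1 CPM), with edgeR adjusted p of 0.0864 to 0.512. Of imprinted lncRNAs, Igf2os was the 1 call of 8 tested loci, and Airn had 108 ± 8.86 and 116 ± 23.7 CPM (edgeR adjusted p = 0.748). Of 9 abundant nuclear lncRNAs, Miat was the 1 call, and 2900097C17Rik had 4813 ± 32.7 and 4489 ± 429 CPM (edgeR adjusted p = 0.630). Tnfsf13os, near the macrophage gene Cd68, had 232 ± 119 and 164 ± 55.6 CPM (edgeR adjusted p = 0.249).

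Some lncRNAs were nearly silent in controls and present with acid. In 3 loci that rose, no control library had a count, and their means with acid were at least 9.67-fold (XLOC_001541), at least 8.10-fold (XLOC_038967) and at least 11.5-fold higher (XLOC_060268) than 3 counts spread over all control libraries, the floor used. The lowest acid level of XLOC_038967 was 0 CPM as well, so its groups overlapped. XLOC_001441 had 1 count over the 3 controls and 160 over the 6 acid libraries, a ratio of 79.4 with a 95% counting interval of 14.0 to 3155. Chrna1os, near the muscle acetylcholine receptor gene Chrna1, had 1 and 57 counts, a ratio of 28.3 (4.88 to 1137). It did not pass without control replicate 1 or 3 (edgeR adjusted p = 0.0532 and 0.0614). In the other direction, XLOC_133144 had 30.9, 31.7 and 25.6 CPM in controls and 0 CPM in 4 of the 6 acid libraries, with 9.38 CPM in stearic acid replicate 2. It fell by 4.15 (SE 0.62, edgeR adjusted p = 5.04e-05). DESeq2 gave −3.91 with an adjusted p of 0.218, so the call was lost there.

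Several of these lncRNAs had a neighbour that changed too. Of 600 pairs of tested loci up to 50 kb apart, both loci passed in 15, and 13 of the 15 moved the same way (86.7%). Over all 600 pairs 54.2% did, but only 111 of them hold a called locus, so this share is no baseline for the 15. Both loci passed in 13.5% of those 111 pairs. Over all tested loci 11.6% passed, a share of loci and not of pairs. The 15 pairs also share loci, 27 in all. Whether neighbours on the same strand belong to 1 transcript was not tested. Near Cd82, a tetraspanin gene, 4 neighbouring loci passed: Gm13807 rose from 5.8, 3.90 and 2.97 CPM to between 23.0 and 49.8 CPM (3.04 ± 0.32, edgeR adjusted p = 4.34e-07), with Gm10804 (0.99) and XLOC_083627 (5.36), which had 2 counts in controls and 190 with acid. The fourth, XLOC_085620 on the other strand, went against them, from 6.29, 27.8 and 15.6 CPM to between 0.366 and 2.38 CPM (−3.93 ± 0.53, edgeR adjusted p = 1.07e-05). Gm10804, XLOC_083627 and XLOC_085620 were chosen after their values were seen.

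By position, 16.1% of 913 loci with no coding gene within 10 kb passed, against 9.59% of 1304 loci that overlap a coding gene on the opposite strand. By level, of 3 equal bins by mean CPM, 18.3% of loci in the highest and 6.81% in the lowest passed. Median levels of the 2 position classes were close, at 15.8 and 15.7 CPM.

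At most of the loci that passed, stearic acid gave the larger change. The difference between the acids does not use the controls, but the loci were called with the same acid libraries that are compared here. The shares below therefore describe the called loci and are no independent test. Whether this selection, or unequal spread or depth of the libraries of each acid, shaped them was not tested. Of the 196 loci that rose, 140 (71.4%) were higher with stearic than with palmitic acid, and of the 157 that fell, 128 (81.5%) were lower, while over all tested loci 51.6% were higher and 48.4% lower. The median stearic minus palmitic difference on the log2 scale was 0.18 among loci that rose and −0.23 among those that fell. Without stearic acid replicate 2, the shares were 70.3% and 80.3%, and over the 17 alternative fits of loci they ran from 66.0% to 78.1% and from 70.1% to 82.5%, an extension chosen after the data were seen.

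**Figure D5:**
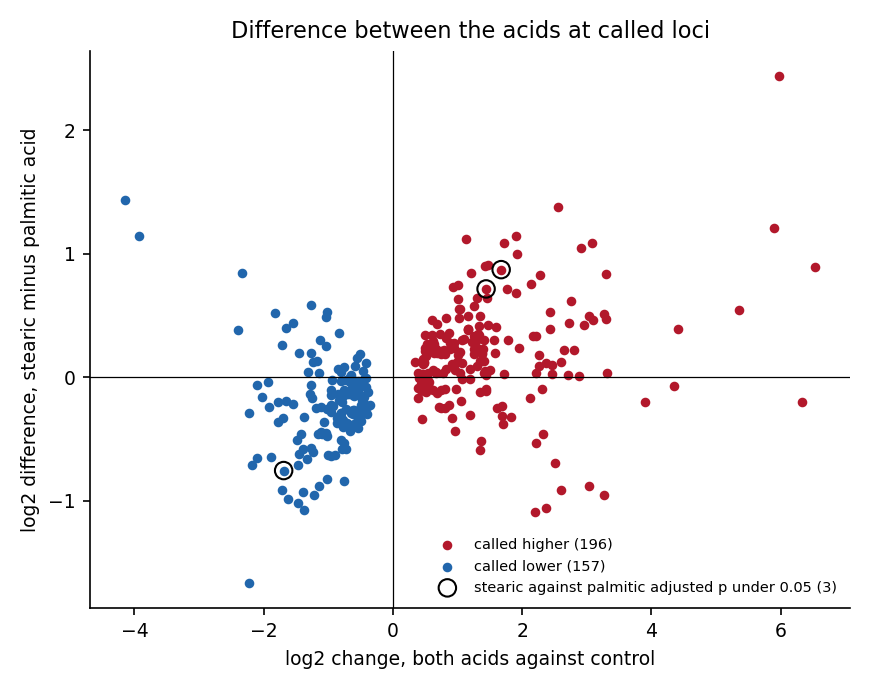
The log2 change with both acids against control and the log2 difference between stearic and palmitic acid are plotted for the 196 loci that rose (red) and the 157 that fell (blue). Most red points lie above 0 and most blue points below 0 on the vertical axis, and circles mark the 3 loci that passed between the acids.

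For single loci the difference between acids seldom passed: 3 of 3039 did (0.0987%), 2 higher (0.0658%) and 1 lower (0.0329%) with stearic acid, against 224 at an unadjusted p under 0.05. DESeq2's Wald test called 7. Without palmitic acid replicate 2, edgeR called 0, against 208 at an unadjusted p under 0.05. The 3 loci all had calls with both acids together.

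At the Mafa antisense locus XLOC_053651, palmitic acid libraries had 925, 965 and 988 CPM and stearic acid libraries 577, 637 and 492 CPM, all under the controls. The difference between the acids was −0.76 ± 0.12 on the log2 scale (SE, edgeR adjusted p = 0.00494). At XLOC_021670 near Dhx40, palmitic acid gave 321, 283 and 309 CPM and stearic acid 584, 572 and 515 CPM, a difference of 0.87 ± 0.14 (edgeR adjusted p = 0.00394). At XLOC_078327 near Gstp3, they gave 524, 555 and 647 against 1008, 909.6 and 915 CPM, a difference of 0.72 ± 0.13 (edgeR adjusted p = 0.00920). The acids did not overlap at any of the 3 loci.

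At some loci the measured difference between the acids was close to 0. For Gm10552 the difference was −0.01, with a 95% confidence interval of −0.30 to 0.28, and for the Rad51b antisense locus XLOC_030548 it was 0.00 to 2 decimals, with an interval of −0.24 to 0.23. For Igf2os, where palmitic acid libraries had 1729, 1605 and 1846 CPM and stearic acid libraries 1104, 1427 and 1112 CPM, the difference of −0.51 (interval −0.77 to −0.24) did not pass over all loci (edgeR adjusted p = 0.199). Gm27168 (−0.98, interval −1.43 to −0.54), Gm12962 (−0.65, interval −0.99 to −0.30), E230016M11Rik (−1.08, interval −1.63 to −0.53) and Miat (1.12, interval 0.61 to 1.64) likewise had intervals that leave out 0 and did not pass (edgeR adjusted p = 0.0924 to 0.220). Against the same 3 controls, Igf2os changed by −1.25 with palmitic and −1.76 with stearic acid, Pvt1 by 0.66 and 0.97, Trp53cor1 by 1.12 and 1.53, and XLOC_045889 by 0.78 and 1.03, each with an edgeR adjusted p under 0.05. In all, 169 loci passed with palmitic acid alone against control (5.56%), 112 higher (3.69%) and 57 lower (1.88%). With stearic acid alone 358 passed (11.8%), 194 higher (6.38%) and 164 lower (5.4%), and these comparisons share their controls. Some pooled calls passed with stearic acid alone and not with palmitic acid alone. Gm16685, XLOC_095270, Eldr, Zfp335os, Ube4bos1 and Rptoros were among them (edgeR adjusted p = 0.186 to 0.280 with palmitic acid). XLOC_037756 and XLOC_054418 passed with palmitic acid alone and not with stearic acid alone (edgeR adjusted p = 0.0895 and 0.0661).

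The calls end in a range with many similar loci. Just inside the threshold lay Gm16105 (log2 change 1.20), XLOC_072934 (0.47) and the Usp18 antisense locus XLOC_126352 (0.63), with edgeR adjusted p of 0.0493 to 0.0495, and just outside XLOC_046553 (1.77), E230016M11Rik (−0.80) and Gm26520 (0.60), at 0.0510 to 0.0516. Of the loci whose groups did not overlap, 197 had no call, 93 above and 104 below the controls, with edgeR adjusted p of 0.0510 to 0.510.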

How the data were processed

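RNA depleted of ribosomal RNA from 9 libraries was sequenced with a kit that keeps strand, per the labels' protocols. Per the submitters' processing notes, the tools included bcl2fastq 2.17.1.14, Trimmomatic 0.30, HISAT2 2.0.1, HTSeq 0.6.1 and DESeq, on mm10; the transcript assembler, the tool behind the expected counts and the strand setting were not found in the labels or the file. The authors' deposited table gives, per lncRNA transcript and library, an expected count (an estimated read count; of those above 0, 51.8% are whole numbers to within 1e-09) and an FPKM. No test used the deposited FPKM.

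Expected counts of 15589 transcripts were summed over 9635 loci and rounded. Loci were filtered with filterByExpr on acid and control groups, scaled with TMM, and tested two-sided with the quasi-likelihood model of edgeR 4.0.16 in R 4.3.3, over all loci, with 6 acid libraries against 3 controls as 1 factor (7 residual degrees of freedom, biological coefficient of variation 0.212). Single-acid and stearic against palmitic contrasts came from a 3-group fit of the same loci (6 residual degrees of freedom). Calls needed a p under 0.05 after Benjamini-Hochberg adjustment over all tested loci. CPM use TMM-scaled library sizes. The script was tested on simulated data. Neighbouring coding genes, within 10 kb, and transcript sequences came from GENCODE M21, where both ends of 6120 transcripts match.

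Named loci were called, had groups that do not overlap, and were the 10 most increased and 10 most decreased at or above the calls' median CPM, the 8 of smallest adjusted p, the 6 of highest CPM, up to 8 per list, the 5 of largest difference between acids, or lncRNAs with an established name; list members of at least 50 CPM also fall under the rule, whether or not called. Others are said to be chosen after their values were seen. Not every locus under the rule is described, and 1 that rose is not reported here. The comparison and the lists were chosen with earlier results of these data known.

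Replicate numbers were not taken as pairs: of 9 pairs of libraries with the same number in different groups, 0 had a correlation of deviations from the group means over 0.1. Alternatives were another design, scaling, filter, test (DESeq2 1.42.0) and threshold, transcripts in place of loci, and each library left out.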

Additional observations from a re-analysis of the deposited data

Results flagged for a closer look

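The effects of the acids differed from each other, by the edgeR test of stearic against palmitic acid, at 3 loci that also passed with both acids together. The log2 difference was −0.76 at the Mafa antisense locus XLOC_053651, 0.72 at XLOC_078327 near Gstp3 and 0.87 at XLOC_021670 near Dhx40.

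Among the 6 acid libraries, 4 single levels lay far from the other 5 by Dixon's test, out of 90 sets of 6 examined (4.44%); chance gives about 1 in 20. XLOC_045853, an intergenic locus that rose with acid, had 142 CPM in stearic acid replicate 1. Stearic acid replicate 2, which also stood apart on the second principal component, was highest at XLOC_133144, with 9.38 CPM, and at XLOC_133336 opposite the ferritin gene Ftl1, with 1023 CPM. Gm12609, opposite the cell cycle inhibitor genes Cdkn2a and Cdkn2b, was lowest in stearic acid replicate 3, with 241 CPM.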

How the results depend on the processing

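No locus among the 353 calls changed direction in any fit of loci. Of the 59 named loci with a call, between 38 and 59 kept it in these fits, and 21 of 56 did with transcripts in place of loci. With 196 loci higher and 157 lower in the comparison as reported, transcripts in place of loci gave 51 and 29, an adjusted p under 0.01 gave 85 and 65, and a log2 change of at least 1 gave 120 and 64. A mean of at least 50 counts gave 104 higher of 1226 loci tested, with 128 above and 139 below the controls, so that the share of calls that were higher went from 55.5% to 48.1%. The replicate number as a block gave 194 higher and 144 lower, and 3 between the acids, the same number as without the block. The average of the acids in the 3-group fit gave 201 and 172, DESeq2 223 and 159, and library size alone 153 and 150 (50.5% higher).

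Leaving out each library gave 96 to 223 higher, 76 to 156 lower, 285 to 387 above and 243 to 383 below the controls, and 0 to 4 between the acids; fewer controls make a lack of overlap easier to meet. Between the acids, 13 passed with no filter on low counts, 7 in DESeq2, and in edgeR 0 with transcripts (216 at an unadjusted p under 0.05) and 0 with a log2 difference of at least 1.

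Among named loci without a call, the change turned for Gm12609 (0.0448) and XLOC_031120 (0.00941) with transcripts and for XLOC_000684 with transcripts (−0.286) and library size alone (−0.00486). With each library left out, values ran through 0 for Gm5441 (−0.295 to 0.00344), Snhg14 (−0.038 to 0.154), Nespas (−0.000849 to 0.1001), XLOC_031120 (−0.14 to 0.09998) and XLOC_000684 (−0.0387 to 0.081). The cause of these shifts was not tested. Depth limits loci of a few CPM, where a floor of 3 counts is up to 2.01 CPM in a library.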
